A study of Mus musculus with 28 samples.

Results

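The 9 genes described here belong to transforming growth factor beta (TGF-beta) signalling and the matrix around it: the ligand genes Tgfb1, Tgfb2, Tgfb3 and Inhba, the genes Ltbp1, Ltbp2 and Thbs1 for matrix proteins of the latent TGF-beta binding family and thrombospondin 1, the receptor gene Tgfbr2 and the target gene Tgfbi. They were chosen by gene symbol, 1 row for each symbol, and make up 9 of the 50600 genes in the expression table. All 9 were tested, since the mean of each over the 28 libraries was 1 or more. The libraries came from RNA-seq of mouse embryonic fibroblasts (MEFs) labelled as wild type, 2 libraries for each of 14 groups. MEF.ctr cells had no treatment and MEF.p38i cells received SB203580, an inhibitor of the p38 MAP kinases (p38i). The other 12 groups were MEFs in OKS reprogramming, in which retroviruses bring Oct4, Klf4 and Sox2 into the cells, sampled at days 1, 3, 5 and 7 in 3 arms. The control arm is called DMSO after the study's name for it, although the labels name no vehicle. The p38i arm had the inhibitor during induction, and the pre-p38i arm had it in MEF culture before induction. Per the methods of the study the MEFs carried an Oct4-GFP reporter, so reprogrammed cells could be seen by their fluorescence. The question was how the effect of the inhibitor depends on the phase in which it is given. The labels do not say whether the 2 libraries of a group came from separate cultures. The p-values thus measure the spread between libraries of a group, which may be technical. That spread was estimated for each gene over all 14 groups in 1 model, so it is not that of the groups compared alone.

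TGF-beta is made as a latent dimer, which some latent TGF-beta binding proteins anchor in the extracellular matrix until integrins or thrombospondin 1 release it. The free ligand binds the type II receptor encoded by Tgfbr2, which recruits and activates a type I receptor that phosphorylates SMAD2 and SMAD3. Activin A, a dimer of the Inhba product, signals to the same SMADs through other receptors. In fibroblasts the pathway raises genes of the matrix and the contractile cytoskeleton, and in reprogramming it is known to oppose the mesenchymal-to-epithelial transition.

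Values are given in TPM, a measure of transcript abundance scaled to transcript length and to a fixed total per library, rounded down to whole numbers in the table. The unit was read from the values, which summed to 991287 to 992537 per library, since the table does not name it. TPM keeps no sequencing depth, so the depth behind each value is unknown and a value of 0 means less than 1 TPM. Between 12454 and 14170 genes reached 1 TPM in a library. Fibroblast markers marked the starting cells: the summed level of 8 markers was 12646 to 13446 TPM in MEF.ctr and 9865 to 9980 in MEF.p38i. All 8 had a group mean of 1 TPM or more in each of the 14 groups. Their sum was lower at day 7, at 3313 to 3497 TPM with DMSO, 4298 to 4311 with p38i and 2354 to 2501 with pre-p38i. The sum of 7 epithelial markers went from 8 to 10 TPM in MEF.ctr to 477 to 509 at day 7 with DMSO, 204 to 224 with p38i and 940 to 979 with pre-p38i. Macrophage markers were also present: the sum of 16 was 387 to 396 TPM at day 7 with DMSO, 272 to 315 with p38i and 117 to 125 with pre-p38i. A group mean of 1 TPM or more was reached there by 16, 13 and 11 of the 16, in that order. Aif1, Csf1r, Fcgr3 and Ptprc were listed at 0 at day 7 with pre-p38i. Aif1 and Ptprc were also at 0 in MEF.p38i and at day 7 with p38i. The part of these marker differences in the results below was not tested. In such bulk RNA, fewer cells of a type and less RNA per cell cannot be told apart.

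**Figure D1:**
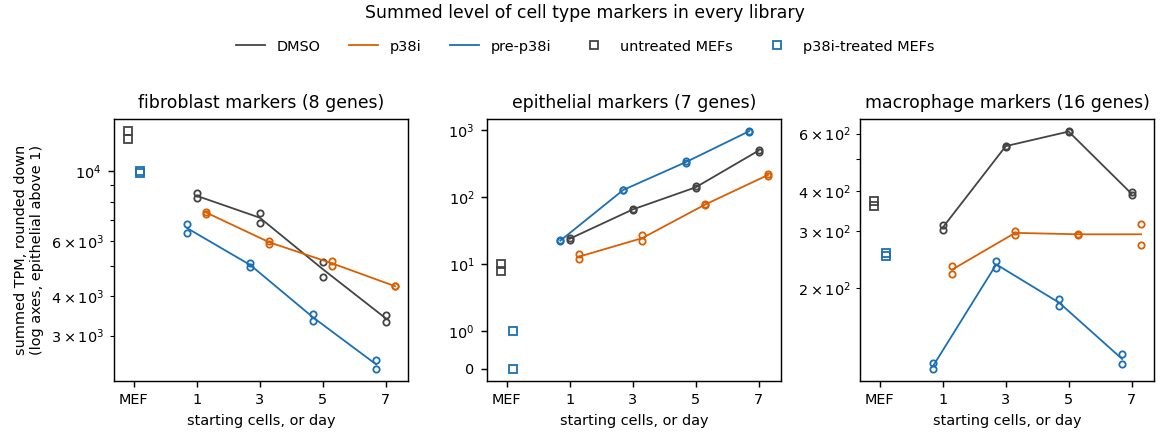
Summed TPM of fibroblast, epithelial and macrophage markers (panels, log axes, the epithelial axis linear below 1) in each library (points) against the starting cells or the day of reprogramming, with lines through the means of the 2 libraries of each group. At day 7 the fibroblast sums stood in the order p38i (4298 to 4311), DMSO (3313 to 3497) and pre-p38i (2354 to 2501), and the epithelial sums in the opposite order.

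Sequences upstream of the genes are shown for 4 of them, as the windows in which the letters of a regulatory motif could be compared among the ligand genes and Ltbp1. RefSeq (GRCm38.p6) gave windows of 250 bases before the annotated start for 7 of the 9 genes, 8 windows in all, and none was found for Tgfb3 and Thbs1. Capitals mark motif matches, and all sequences read 5′ to 3′ on the strand of the gene. The first window is chr7:25686752-25687001 (+), the second chr1:186705990-186706239 (-), the third chr13:16011601-16011850 (+), and the last pair, for 2 starts of Ltbp1, chr17:75005279-75005528 and chr17:75178531-75178780 (+).
Tgfb1: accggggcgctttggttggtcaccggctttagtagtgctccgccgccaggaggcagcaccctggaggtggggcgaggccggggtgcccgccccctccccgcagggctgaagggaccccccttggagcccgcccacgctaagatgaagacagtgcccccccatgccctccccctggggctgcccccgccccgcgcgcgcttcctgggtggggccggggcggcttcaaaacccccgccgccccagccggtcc
Tgfb2: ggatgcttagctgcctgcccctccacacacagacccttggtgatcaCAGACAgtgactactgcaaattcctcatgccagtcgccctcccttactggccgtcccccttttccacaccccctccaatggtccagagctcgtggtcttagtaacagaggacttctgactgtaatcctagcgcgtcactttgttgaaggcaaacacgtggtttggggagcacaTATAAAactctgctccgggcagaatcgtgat
Inhba: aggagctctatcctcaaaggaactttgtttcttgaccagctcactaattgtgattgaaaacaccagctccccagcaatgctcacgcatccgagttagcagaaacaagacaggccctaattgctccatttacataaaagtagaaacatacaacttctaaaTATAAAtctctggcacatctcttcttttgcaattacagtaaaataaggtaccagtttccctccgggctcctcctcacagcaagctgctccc
Ltbp1, first start: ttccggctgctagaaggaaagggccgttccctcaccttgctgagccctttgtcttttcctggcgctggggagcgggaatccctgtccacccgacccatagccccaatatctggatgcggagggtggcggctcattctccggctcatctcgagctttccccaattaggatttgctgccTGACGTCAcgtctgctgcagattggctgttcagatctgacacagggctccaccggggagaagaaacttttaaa
Ltbp1, second start: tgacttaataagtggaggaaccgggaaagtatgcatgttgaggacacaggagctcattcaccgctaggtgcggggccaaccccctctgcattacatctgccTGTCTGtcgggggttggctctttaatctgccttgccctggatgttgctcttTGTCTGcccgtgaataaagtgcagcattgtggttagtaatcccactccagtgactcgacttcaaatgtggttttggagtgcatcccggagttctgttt
Both strands were searched for 5 motifs. The cyclic AMP response element TGACGTCA lay 73 bases before the first start of Ltbp1, and 1.546% of 32851 promoter windows of the same length held it. The SMAD-type letters CAGACA stood 204 bases before the start of Tgfb2, and their reverse complement TGTCTG stood 149 and 98 bases before the second start of Ltbp1, against 17.13% of all windows. A TATAAA lay 31 bases before the start of Tgfb2 and 91 bases before that of Inhba, against 12.37% of all windows. The AP-1 letters TGANTCA (6.749% of all windows) and the SMAD palindrome GTCTAGAC (0.1674%) had no match in the 8 windows. Matches to different motifs did not overlap. No match was found for Tgfb1, Ltbp2, Tgfbr2 or Tgfbi, which says only that these letters are not in those windows.

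Positions are those of the expression table, on GRCm38. Tgfb1 is at chr7:25687002-25705077, Tgfb2 at chr1:186622792-186705989, Tgfb3 at chr12:86056744-86079041 and Inhba at chr13:16011851-16027211. Ltbp1 is at chr17:75005568-75392512, Ltbp2 at chr12:84783212-84876532 and Thbs1 at chr2:118111876-118127133, with Tgfbr2 at chr9:116084293-116175360 and Tgfbi at chr13:56609603-56639339. All are protein-coding, and the values cover the transcripts of the whole gene. On the opposite strand, Tgfb3 overlaps Ttll5, which stood at 9 to 16 TPM in every library, and Ltbp2 overlaps the antisense gene D030025P21Rik, at 0 to 8 TPM. The antisense transcript matched Ltbp2 over 764 bases without a mismatch, and the strand setting of the counting is not given in the sources used here, so low values of Ltbp2 are uncertain to that extent. A stretch of 258 bases of Tgfb3 is also identical in Gm48008, which was not analysed here.

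Differences are given on the log2(TPM + 1) scale with the standard error (SE), and a fold is 2 raised to that difference, which understates the change of low genes. A gene is called where limma's adjusted p (Benjamini-Hochberg over 13230 genes) is under 0.05, and only then is it said to rise or fall. The plot of every library shows the main features. Inhba, Thbs1, Tgfb3 and Ltbp2 stood highest in untreated MEFs and low at day 7. Tgfbr2 was the exception and stood higher in all reprogramming groups than in MEFs. The p38i and pre-p38i arms moved apart toward day 7 for Tgfb1, Thbs1 and Inhba, among others. For Tgfbi (p38i minus pre-p38i -1.86 at day 1 and 0.32 at day 7) and Ltbp1 (-0.54 and -0.03) they came closer.

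**Figure D2:**
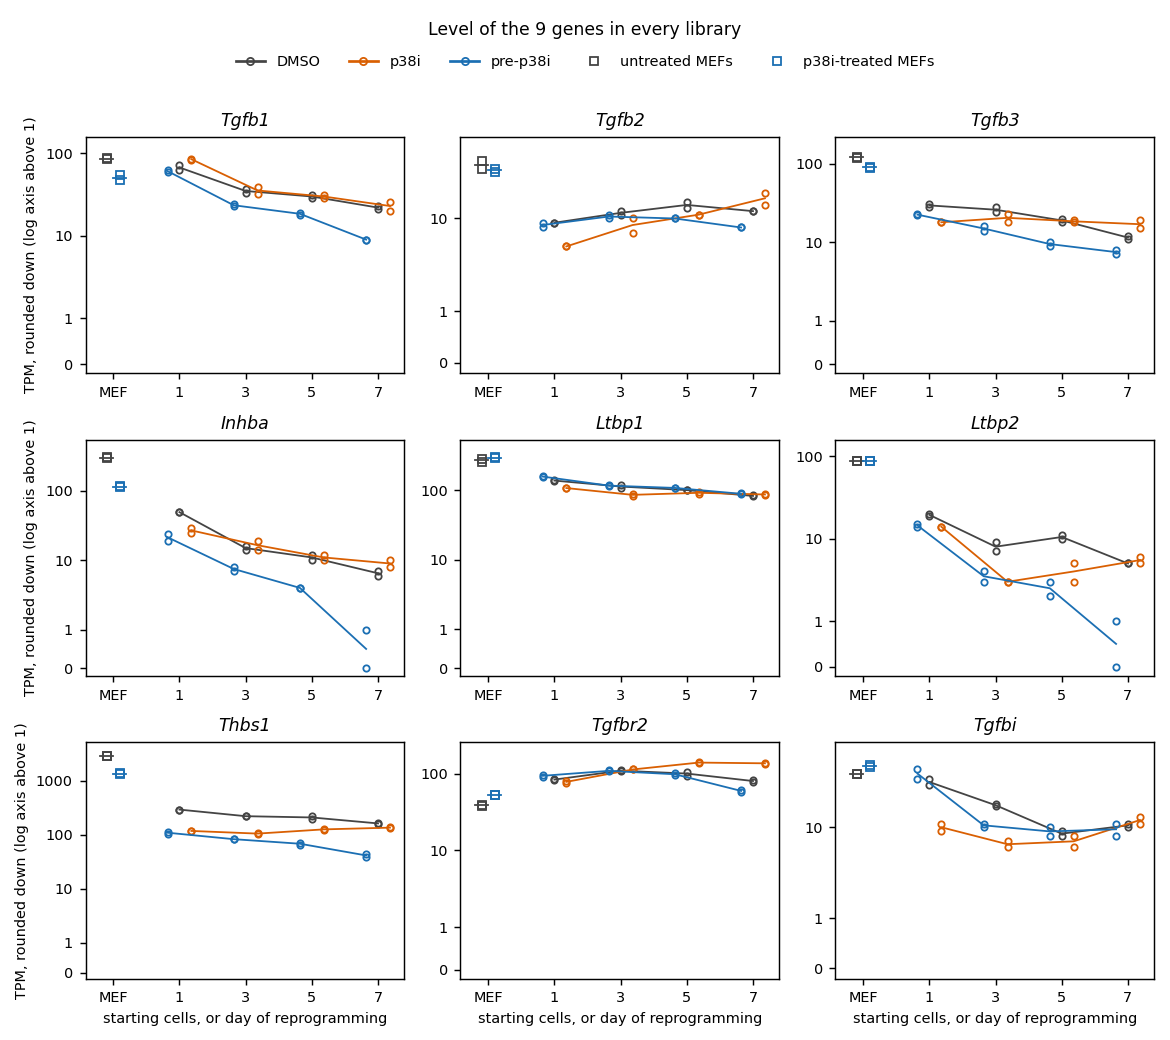
TPM (rounded down) of each of the 9 genes in every library (points; axis linear near 0 and logarithmic above) against the starting cells or the day of reprogramming, with lines through the means of the 2 libraries of each arm. The p38i arm at day 7 lies above the pre-p38i arm for Tgfb1 (20 and 26 against 9 and 9) and Tgfbr2 (135 and 137 against 57 and 62), and Thbs1 is lower in both inhibitor arms than with DMSO at every day.

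During DMSO reprogramming 8 of the 9 genes fell and 1, Tgfbr2, rose between MEFs and day 7. Of all genes tested 66.8% were called in that comparison, 43% higher and 23.8% lower. The median difference of the 9 was -1.93, beside 0.20 over all genes. Part or all of the change was present at day 1, when 7 genes were lower and 1 higher than in MEFs, against 55.5% of all genes called (36.6% higher and 18.9% lower). Of the day 7 difference from MEFs, 79.5% was present at day 1 for Thbs1, 60.9% for Tgfb3 and 48.4% for Inhba, but 18.5% for Tgfb1 and 16.9% for Tgfbi. The share was 56.9% for Ltbp1 and 54.6% for Ltbp2. For Tgfb2 and Tgfbr2 the day 1 difference was 124.0% and 106.0% of that at day 7. Between day 1 and day 3, 6 genes fell and 1 rose, against 44.5% of all genes called (20.5% higher and 24% lower). Between day 3 and day 5, 3 fell, against 19.4% called (13.8% higher and 5.57% lower), and between day 5 and day 7, 7 fell, against 26.7% called (10.3% higher and 16.4% lower). The last pair of steps were less stable: without one library of the groups compared, 1 to 3 were called between days 3 and 5 and 4 to 7 between days 5 and 7. The calls lost between days 3 and 5 were Tgfb3 (adjusted p 0.00208 to 0.169 over its alternatives) without replicate 1 of DMSO day 3 or of day 5, and Ltbp1 (0.00267 to 0.241), also without replicate 2 of day 5. Between days 5 and 7 Inhba lost its call without replicate 2 of day 5 or either replicate of day 7 (0.00722 to 0.421), Tgfb1 without replicate 2 of day 5 or replicate 1 of day 7 (0.00514 to 0.0697), and Ltbp2 without replicate 2 of day 5 (0.00164 to 0.249). The day 1 fall of Tgfb1 from MEFs (-0.36, adjusted p = 0.00883) ended without replicate 2 of either group (0.00229 to 0.11).

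Tgfb1 encodes the most widely expressed of the TGF-beta ligands. It stood at 85 and 88 TPM in MEF.ctr and at 48 and 54 in MEF.p38i. In the DMSO arm it was at 72 and 63 at day 1, 37 and 33 at day 3, 29 and 31 at day 5, and 21 and 23 at day 7. The p38i arm held 86 and 84, 39 and 32, 31 and 29, and 26 and 20 on the same days. These libraries overlapped those of DMSO at days 3, 5 and 7, while at day 1 both lay above. The pre-p38i arm had 59 and 63, 24 and 23, 18 and 19, and 9 and 9 TPM, and from day 3 on both libraries were below both DMSO libraries. Treatment of MEFs lowered Tgfb1 by a log2 difference of -0.75 (SE 0.109, adjusted p = 5.7e-05). With pre-p38i it fell against DMSO by 0.55 at day 3 (adjusted p = 0.00118), by 0.67 at day 5 (0.000124) and by 1.20 at day 7 (7.48e-08), and at day 1 the difference was -0.14 (0.472). With p38i the difference at day 1 was 0.33 (0.0437), a call lost in 8 of 10 alternatives, leaving out any 1 of the 4 libraries included. Its size was 0.24 to 0.43 over these alternatives. The p38i difference was 0.02, 0.00 and 0.05 at days 3, 5 and 7. At day 3 in the pre-p38i arm and in MEFs the call ended when only the 4 libraries compared were fitted (adjusted p = 0.0708 and 0.0547, against lows of 0.000296 and 4.56e-05 over the alternatives).

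Tgfb2 and Tgfb3 encode the other two TGF-beta ligands, which differ from TGF-beta 1 in their receptor affinity and tissue distribution. Tgfb2 was at 34 and 42 TPM in MEF.ctr and 32 and 34 in MEF.p38i, and these groups did not differ by the test (log2 difference -0.19, 95% interval -0.49 to 0.11, adjusted p = 0.426). On days 1, 3, 5 and 7 it was at 9 and 9, 12 and 11, 13 and 15, and 12 and 12 TPM with DMSO. In this arm its lowest level was that of day 1. The p38i libraries held 5 and 5, 10 and 7, 11 and 11, and 14 and 19, and the pre-p38i libraries 8 and 9, 11 and 10, 10 and 10, and 8 and 8. The p38i arm thus lay below DMSO on days 1, 3 and 5 and above it at day 7. Its difference from DMSO was -0.74 at day 1 (SE 0.145, adjusted p = 0.00139), -0.41 at day 3 (0.0488), -0.32 at day 5 (0.117) and 0.41 at day 7 (0.0333). The calls at days 3 and 7 lay near the threshold. That of day 3 was lost in 7 of 10 alternatives (-0.18 to -0.64 over all of them). Among these were an added constant of 0.1, quantile normalization, and leaving out either DMSO library or replicate 2 of p38i. The day 7 call was lost in 4 of 10 (0.21 to 0.62 over all of them). These were a fit of only the 4 libraries compared, and leaving out either DMSO library or replicate 2 of p38i. With pre-p38i Tgfb2 fell by 0.53 at day 7 (0.00922) and by 0.44 at day 5 (0.03), and the day 5 call ended without replicate 2 of DMSO or either pre-p38i library (0.00544 to 0.198).

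Tgfb3 was the highest of the 3 isoforms in MEFs, at 122 and 120 TPM in MEF.ctr and 92 and 88 in MEF.p38i. With DMSO it was at 31 and 28, 28 and 24, 18 and 20, and 11 and 12 TPM on the 4 days, and at day 1 it differed from MEF.ctr by -2.00 on the log2 scale (SE 0.120, adjusted p = 2.06e-11). The p38i arm had 18 and 18, 23 and 18, 18 and 19, and 15 and 19 TPM, a range of 15 to 23 over 8 libraries. The pre-p38i arm had 22 and 23, 16 and 14, 9 and 10, and 8 and 7, below DMSO in both libraries on every day. Against DMSO the p38i arm was lower at day 1 (-0.68, adjusted p = 0.000534) and higher at day 7 (0.52, 0.00235), with no call at day 3 (-0.33, 0.054) or day 5 (-0.04, 0.873). The day 7 call ended without replicate 2 of p38i (0.000438 to 0.119 over its alternatives), and the day 1 call with only the 4 libraries compared in the fit (adjusted p = 0.0501, from 0.000436). With pre-p38i Tgfb3 fell by 0.75 at day 3 (0.000183), 0.93 at day 5 (9.99e-06) and 0.56 at day 7 (0.00156), while the day 1 difference of -0.37 (0.0496) lost its call in 8 of 10 alternatives, leaving out any 1 of the 4 libraries included (0.0357 to 0.266). The pre-p38i calls at day 3 (adjusted p = 0.085, from 3.09e-05) and day 7 (0.06, from 0.000264) also ended with only the 4 libraries compared in the fit. In MEFs it fell by 0.42 with the inhibitor (0.0188), also a call that ended without any 1 of the 4 libraries (0.0122 to 0.109).

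The make-up of the 3 TGF-beta ligand transcripts shifted in the course. TPM is scaled to transcript length, so levels can be set side by side. Their sum was 245.5 TPM in MEF.ctr, of which Tgfb3 made 49.3% ± 1.85 (SD, n = 2), Tgfb1 35.2% ± 0.05 and Tgfb2 15.5% ± 1.90. One day into DMSO reprogramming the sum was 106 TPM and Tgfb1 made 63.7%. By day 7 the sum was 45.5 TPM and the shares of Tgfb1, Tgfb2 and Tgfb3 were 48.3%, 26.4% and 25.3%. With p38i the share of Tgfb1 was highest at day 1, 78.7% of 108 TPM, and at day 7 it was 40.9% ± 9.04 (SD, n = 2) of 56.5 TPM. The pre-p38i arm had the lowest sum at day 7, 24.5 TPM, which the 3 isoforms shared in nearly equal parts (36.8%, 32.7% and 30.6%). These shares are descriptions and were not tested.

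**Figure D3:**
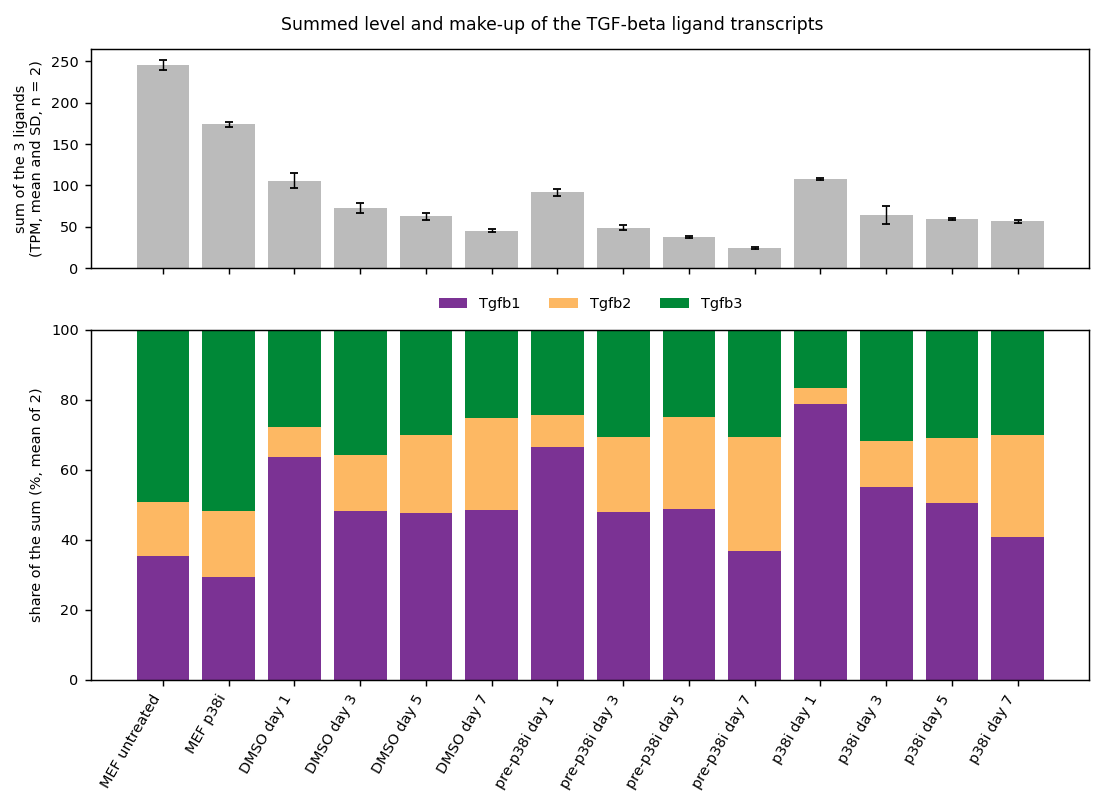
Summed TPM of Tgfb1, Tgfb2 and Tgfb3 in each of the 14 groups (upper bars, mean and SD of 2 libraries) and the percent of that sum made by each isoform (stacked bars). The sum is 245.5 TPM in MEF.ctr and 24.5 TPM at day 7 with pre-p38i, and Tgfb1 makes the largest part at day 1 in all 3 arms (63.7% with DMSO, 78.7% with p38i and 66.3% with pre-p38i).

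Inhba encodes the subunit of activin A. It was at 306 and 299 TPM in MEF.ctr and 114 and 118 in MEF.p38i, and fell by 1.38 on the log2 scale (SE 0.218, adjusted p = 0.00016). On days 1, 3, 5 and 7 the DMSO libraries held 49 and 50, 16 and 14, 10 and 12, and 6 and 7 TPM. The day 7 level differed from that of MEFs by -5.34 on the log2 scale (adjusted p = 2.25e-14), the largest fall among the 9 genes. The pre-p38i libraries had 24 and 19, 7 and 8, 4 and 4, and 1 and 0 TPM, and the p38i libraries 25 and 29, 19 and 14, 10 and 12, and 10 and 8. Both pre-p38i libraries were below both DMSO libraries on every day, whereas p38i lay below DMSO at day 1, overlapped it at day 3 and day 5, and lay above it at day 7. Against DMSO Inhba fell with pre-p38i by 1.18 at day 1 (adjusted p = 0.00136), 0.91 at day 3 (0.00547), 1.26 at day 5 (0.000244) and 2.40 at day 7 (7.87e-08). The day 7 size depended on the added constant, because 1 library was listed at 0 (-1.90 to -4.31 over the alternatives), and with only the 4 libraries compared in the fit its adjusted p was 0.0652 (from 2e-09). The day 3 call ended without replicate 1 of DMSO or of pre-p38i (0.000455 to 0.293). With p38i the difference was -0.85 at day 1 (0.0103), a call that ended without either DMSO library or replicate 1 of p38i (0.0085 to 0.382), and 0.12 (0.761), 0.00 (1) and 0.41 (0.16) on the later days. A smaller added constant, 0.1, ended the calls in MEFs, at days 1, 3 and 5 of pre-p38i and at day 1 of p38i. The highest adjusted p over the alternatives was 0.132 in MEFs, and 0.242 and 0.102 at days 1 and 5 of pre-p38i. With only the 4 libraries compared in the fit, the calls at days 1 and 3 of pre-p38i and day 1 of p38i also ended.

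Thbs1, for the matrix protein thrombospondin 1 that can activate latent TGF-beta, was lower with the inhibitor in all 9 comparisons with untreated or DMSO cells. It was at 2839 and 2796 TPM in MEF.ctr and at 1329 and 1358 in MEF.p38i. With DMSO it was at 290 and 289, 219 and 218, 194 and 220, and 155 and 166 TPM on days 1, 3, 5 and 7. No other of the 9 genes was as high in MEFs, and at day 1 Thbs1 had fallen 9.70-fold (log2 difference -3.28, SE 0.0639, adjusted p = 3.48e-19). The p38i libraries held 118 and 115, 105 and 103, 122 and 127, and 131 and 137 TPM. The pre-p38i libraries held 104 and 112, 82 and 82, 70 and 65, and 44 and 38. All libraries of both inhibitor arms lay below the DMSO libraries of their day. In MEFs the inhibitor lowered it by 1.07 (adjusted p = 5.2e-10). With pre-p38i the difference from DMSO was -1.42 at day 1, -1.40 at day 3, -1.60 at day 5 and -1.95 at day 7 (adjusted p = 3.96e-11, 2.32e-11, 1.2e-12 and 3.83e-14). With p38i it was -1.31, -1.06, -0.73 and -0.26 (4.86e-11, 6.35e-10, 8.97e-08 and 0.00388). The call at day 7 of p38i ended without replicate 2 of DMSO (0.00199 to 0.0706), and that at day 5 with only the 4 libraries compared in the fit (adjusted p = 0.0516, from 6.16e-08). Over the 14 groups in order of level, 2 of the 13 neighbouring pairs overlapped in their libraries, against 6 to 10 for the other genes. Equal whole numbers counted as overlap, which is likelier at low levels, and genes outside the 9 were not counted.

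Ltbp1 and Ltbp2 encode latent TGF-beta binding proteins, of which LTBP1 binds latent TGF-beta and LTBP2 is a matrix protein that does not. Ltbp1 was at 278 and 256 TPM in MEF.ctr and 288 and 295 in MEF.p38i (difference 0.13, 95% interval 0.02 to 0.23, adjusted p = 0.0833). On the 4 days it was at 138 and 136, 117 and 108, 99 and 101, and 84 and 81 TPM with DMSO. It was the least affected of Ltbp1, Ltbp2 and Thbs1 by pre-p38i, in which it held 157 and 156, 117 and 115, 107 and 108, and 90 and 87 TPM. The p38i arm had 107 and 107, 88 and 83, 94 and 89, and 87 and 86. Ltbp1 fell with p38i by 0.35 at day 1 (SE 0.0493, adjusted p = 4.69e-05) and by 0.39 at day 3 (8.48e-06), with differences of -0.13 at day 5 (0.0637) and 0.07 at day 7 (0.318). The day 3 call ended with only the 4 libraries compared in the fit (adjusted p = 0.0841, from 7.15e-06). With pre-p38i it was 0.19 higher at day 1 (0.0157), which ended without any 1 of the 4 libraries (0.0106 to 0.0924), and 0.04 to 0.10 higher on the later days with no call.

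Ltbp2 was at 89 and 89 TPM in MEF.ctr and 87 and 87 in MEF.p38i, with no call (-0.03, 95% interval -0.53 to 0.46, adjusted p = 1). With DMSO it was at 20 and 19, 9 and 7, 10 and 11, and 5 and 5 TPM on the 4 days. The p38i arm held 14 and 14, 3 and 3, 3 and 5, and 5 and 6, and the pre-p38i arm 14 and 15, 3 and 4, 3 and 2, and 0 and 1. From day 1 to day 5 both inhibitor arms lay below DMSO in both libraries, and at day 7 the p38i arm overlapped DMSO. With pre-p38i Ltbp2 fell by 1.00 at day 3 (SE 0.236, adjusted p = 0.00501), by 1.73 at day 5 (1.87e-05) and by 2.09 at day 7 (1.37e-06). With p38i it fell by 1.16 at day 3 (0.00131) and 1.23 at day 5 (0.000657). At day 1 neither the pre-p38i difference (-0.40, 0.315) nor that of p38i (-0.45, 0.223) was called. The day 3 call of pre-p38i ended without replicate 1 of DMSO or of pre-p38i (0.000785 to 0.213), and the day 7 value ran from -1.59 to -3.94 over the alternatives (adjusted p 8.29e-08 to 0.0779), since 1 library was listed at 0. With only the 4 libraries compared in the fit or an added constant of 0.1, the p38i calls at days 3 and 5 ended (adjusted p up to 0.135 and 0.114). The pre-p38i call at day 3 ended under the same 2 settings. That of day 7 ended with only the 4 libraries compared in the fit (adjusted p = 0.0779). Ltbp1 made 75.0% of the sum of the 2 genes in MEF.ctr and 94.3% at day 7 with DMSO, 94.0% with p38i and 99.4% with pre-p38i.

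Tgfbr2, the type II receptor gene, was at 39 and 38 TPM in MEF.ctr and 52 and 52 in MEF.p38i, a rise of 0.42 (SE 0.0625, adjusted p = 7.16e-05). With DMSO it was at 85 and 82, 108 and 110, 94 and 106, and 77 and 83 TPM on days 1, 3, 5 and 7. At day 1 it was 2.14-fold above MEF.ctr (log2 difference 1.10, adjusted p = 8.77e-12), the only one of the 9 to rise. The p38i libraries held 75 and 81, 113 and 113, 142 and 136, and 135 and 137 TPM. The pre-p38i libraries held 90 and 97, 107 and 110, 101 and 95, and 62 and 57. At day 7 the 3 arms were apart, with p38i highest and pre-p38i lowest. With p38i it rose against DMSO by 0.47 at day 5 (1.26e-05) and 0.76 at day 7 (2.4e-08), and with pre-p38i it fell by 0.42 at day 7 (3.76e-05). With only the 4 libraries compared in the fit the day 5 call of p38i (adjusted p = 0.0798, from 1.18e-06) and the day 7 call of pre-p38i (0.059, from 7.9e-06) ended. On the other days the differences were -0.10 to 0.16 with no call.

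Tgfbi encodes a secreted matrix protein named for its induction by TGF-beta. It was at 39 and 39 TPM in MEF.ctr and 48 and 46 in MEF.p38i, a difference of 0.26 with no call (95% interval -0.07 to 0.60, adjusted p = 0.302). With DMSO it was at 34 and 29, 18 and 17, 8 and 9, and 11 and 10 TPM on the 4 days, and with pre-p38i at 34 and 44, 10 and 11, 8 and 10, and 8 and 11. At day 1 the pre-p38i libraries thus overlapped those of DMSO. The p38i libraries held 9 and 11, 6 and 7, 6 and 8, and 11 and 13 TPM, a range of 6 to 13 over the 4 days. Tgfbi fell with p38i by 1.56 at day 1 (SE 0.161, adjusted p = 1.35e-06) and by 1.31 at day 3 (6.67e-06), with differences of -0.26 (0.266) and 0.17 (0.443) at days 5 and 7. With only the 4 libraries compared in the fit the day 1 adjusted p was 0.0509 (from 9.68e-07). With pre-p38i it fell by 0.69 at day 3 (0.00481), a call that ended without replicate 1 of pre-p38i (0.00174 to 0.0534), and was not called on the other days.

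Counted over the 9 genes, the pre-p38i arm had 1 higher and 3 lower at day 1, when 11.6% of all genes were called against DMSO (5.4% higher and 6.24% lower). It had 6 lower at day 3 (20.6% of all genes called, 13.8% higher and 6.87% lower), 6 lower at day 5 (25.6%, 14.3% and 11.3%) and 7 lower at day 7 (29.9%, 15.4% and 14.5%). The number lower in this arm thus went from 3 at day 1 to 7 at day 7, and none was higher after day 1. The p38i arm had 1 higher and 6 lower at day 1, when 16.1% of all genes were called (3.47% higher and 12.6% lower), and 5 lower at day 3 (21.4%, 5.22% and 16.2%). It had 1 higher and 2 lower at day 5 (26.6%, 7.87% and 18.7%), and 3 higher and 1 lower at day 7 (34.1%, 16.5% and 17.6%). In MEFs the inhibitor gave 1 higher and 4 lower (17.9%, 9.73% and 8.15%). The median difference of the 9 from DMSO at day 7 was -0.56 with pre-p38i and 0.17 with p38i, beside 0.05 and 0.00 over all genes. Both arms are set against the same DMSO libraries, so their counts are not independent. Without 1 library, the day 1 count of pre-p38i was 2, that of day 3 was 3 without replicate 1 of pre-p38i and 4 without replicate 1 of DMSO, and the day 7 count of p38i was 2 to 4. The fibroblast marker sum of pre-p38i was 0.79, 0.71, 0.70 and 0.71 times that of DMSO on the 4 days and its macrophage sum 0.38, 0.43, 0.30 and 0.31 times, while its epithelial sum was 0.94, 1.95, 2.39 and 1.95 times. For p38i the fibroblast sum was 0.88, 0.84, 1.04 and 1.26 times that of DMSO, the macrophage sum 0.74, 0.54, 0.48 and 0.75 times and the epithelial sum 0.54, 0.37, 0.55 and 0.43 times. Their part in these counts was not tested.

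**Figure D4:**
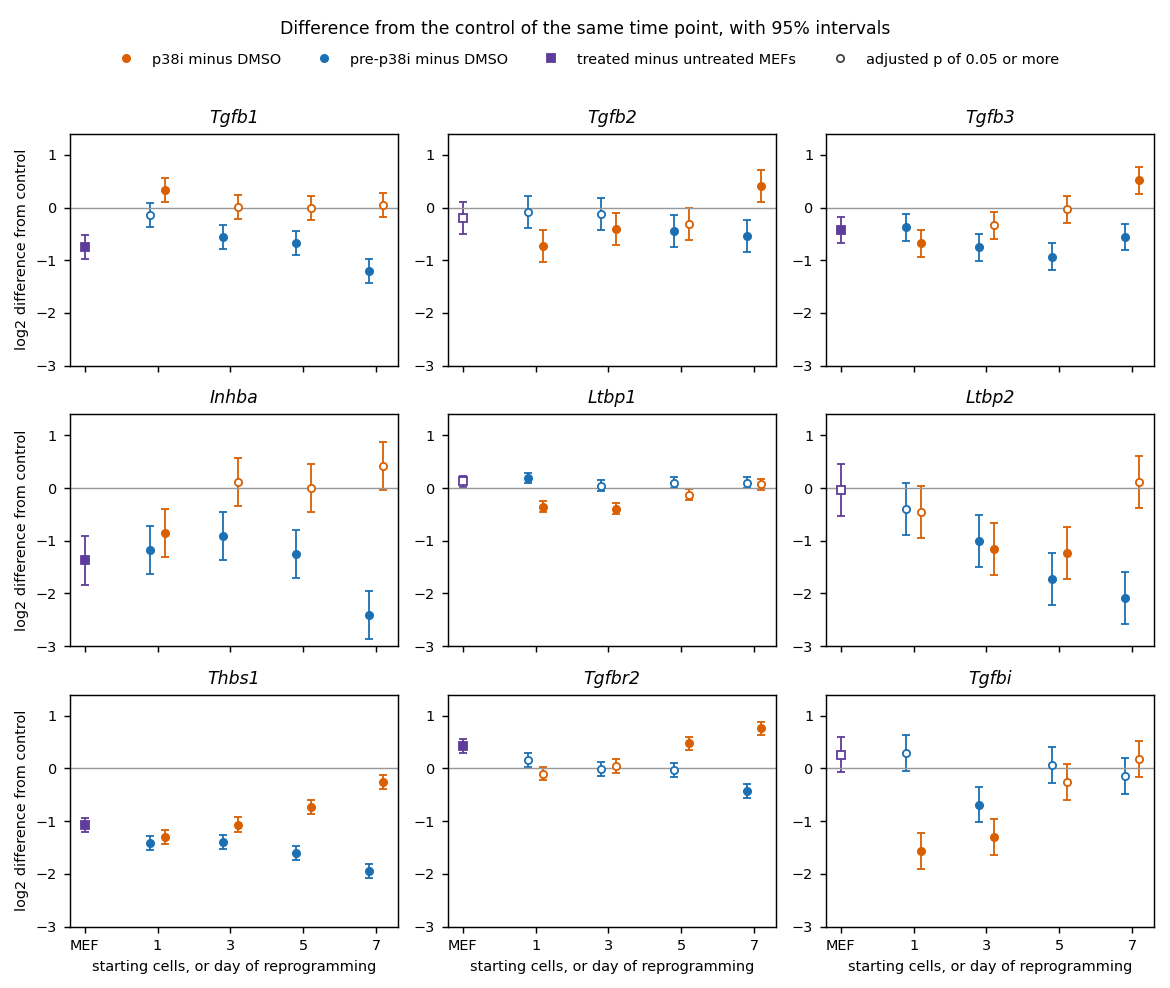
Log2 differences from DMSO on the same day, and of MEF.p38i from MEF.ctr, for each of the 9 genes (points with 95% intervals from limma on the log2(TPM + 1) scale, filled where the adjusted p is under 0.05). Thbs1 is below 0 in both arms on every day, and at day 7 the pre-p38i and p38i points stand on opposite sides of 0 for Tgfbr2 (-0.42 and 0.76) and Tgfb3 (-0.56 and 0.52).

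The arms were also compared with each other on the same day. At day 1, 1 gene was higher with p38i than with pre-p38i and 4 were lower, against 28.2% of all genes called (8.25% higher and 19.9% lower). At day 3 the numbers were 4 and 2 (42.2% of all genes called, 10.7% higher and 31.4% lower), at day 5 they were 5 and 1 (47.5%, 16.3% and 31.1%), and at day 7 they were 7 and 0 (54.3%, 24.8% and 29.5%). The members higher with p38i thus increased with the day. The largest differences at day 7 were those of Inhba (2.81, or 7.04-fold, SE 0.218, adjusted p = 1.93e-09), Ltbp2 (4.58-fold, 1.92e-07) and Thbs1 (1.69, or 3.22-fold, 5.97e-14). After them came Tgfb1 (1.25, 9.82e-09), Tgfbr2 (1.18, 7.54e-12), Tgfb3 (1.08, 3.3e-07) and Tgfb2 (0.94, 1.77e-05). For Inhba and Ltbp2 the pre-p38i libraries were listed at 0 and 1 TPM, so the size depended on the added constant. On the log2 scale it ran from 2.31 to 4.77 for Inhba and from 1.70 to 4.07 for Ltbp2 over the alternatives. Neither Tgfbi (0.32, 0.104) nor Ltbp1 (-0.03, 95% interval -0.14 to 0.07, 0.605) was called at day 7. At day 1 Tgfbi was the most different gene, which fell by 1.86 with p38i relative to pre-p38i (5.12e-08), and Ltbp1 fell by 0.54 (8.88e-08). The day 1 call of Tgfbr2 (-0.26, 0.00401) ended without replicate 1 of p38i or replicate 2 of pre-p38i (0.00345 to 0.127). The epithelial sum at day 7 was 204 to 224 TPM with p38i and 940 to 979 with pre-p38i, and its part in these differences was not tested.

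Whether the distance from DMSO itself differed between day 1 and day 7 was tested as an interaction. In the p38i arm the difference from DMSO was higher at day 7 than at day 1 for 7 of the 9 genes, against 21.6% of all genes called (14.1% higher and 7.55% lower), by 1.74 for Tgfbi, 1.27 for Inhba, 1.20 for Tgfb3, 1.15 for Tgfb2, 1.05 for Thbs1, 0.86 for Tgfbr2 and 0.42 for Ltbp1. In the pre-p38i arm it was lower at day 7 for 5 genes, against 16.7% of all genes called (7.25% higher and 9.43% lower), with changes of -1.68 for Ltbp2, -1.23 for Inhba, -1.06 for Tgfb1, -0.58 for Tgfbr2 and -0.53 for Thbs1. None of these calls ended on leaving out 1 library. With only the groups compared in the fit, the pre-p38i calls of Ltbp2 (adjusted p = 0.0632) and Inhba (0.145) ended. With an added constant of 0.1 the p38i call of Inhba ended (0.309). The Ltbp2 change of pre-p38i ran from -1.18 to -3.52 over the alternatives, since 1 library was listed at 0. In the fit of all 14 groups, the difference from DMSO moved in opposite directions in the 2 arms for Thbs1, Tgfbr2 and Inhba. The level did not always do so. The adjusted p were 1.5e-07, 1.49e-06 and 0.0061 in the p38i arm and 0.000366, 0.00011 and 0.00912 in the pre-p38i arm. The Inhba value of pre-p38i was -0.73 without the day 7 library listed at 0 and its adjusted p ran from 5.64e-05 to 0.145 over the alternatives.

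Other genes of the pathway were taken from lists of components chosen with earlier results of these data known. Among 19 measured target genes of TGF-beta in fibroblasts, of 20 listed, pre-p38i lowered 12 at day 1, 13 at day 3, 14 at day 5 and 14 at day 7, and p38i lowered 7, 10, 6 and 1 on the same days. Of all genes, pre-p38i lowered 6.24%, 6.87%, 11.3% and 14.5% and p38i 12.6%, 16.2%, 18.7% and 17.6%. The pre-p38i counts were 5, 7, 8 and 12 and the p38i counts 6, 6, 3 and 1 with only the 4 libraries compared in the fit. The p38i arm raised 0, 0, 4 and 10 of them (3.47%, 5.22%, 7.87% and 16.5% of all genes). The pre-p38i arm raised 1, at day 5 (14.3% of all genes). The p38i counts of days 5 and 7 were 1 and 7 with only the 4 libraries compared in the fit. The list's median difference from DMSO at day 7 was -0.82 with pre-p38i and 0.30 with p38i, beside 0.05 and 0.00 over all genes. Col1a1, Col1a2 and Col3a1 are also among the fibroblast markers, so the list and the markers are not separate measures. The 4 raised at day 5 with p38i were 2 without replicate 1 or 2 of DMSO or replicate 1 of p38i, the 1 lowered at day 7 was 0 without replicate 1 of DMSO, and the 1 raised with pre-p38i at day 5 was 0 without replicate 1 of pre-p38i.

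Ctgf, for the matricellular protein connective tissue growth factor, separated the arms at day 7. It was at 235 and 268 TPM with DMSO, 451 and 466 with p38i and 74 and 75 with pre-p38i, and between the inhibitor arms it differed by 2.61 (SE 0.0671, adjusted p = 2.75e-16). The actin-binding gene Tagln had 15 and 16, 23 and 32, and 3 and 2 TPM in the same order, and pre-p38i differed from DMSO by -2.25 (1.62e-10). Col3a1, a fibrillar collagen, fell by 1.33 with p38i at day 1, from 341 and 320 TPM to 127 and 134 (7.67e-10), while the pre-p38i libraries held 331 and 327. Postn, for periostin, fell by 0.97 with p38i at day 1 (6.54e-07), from 71 and 64 TPM to 34 and 34. Each of these calls held in all 10 alternatives tried for it, leaving out any 1 library included.

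Of 14 measured genes for the latent complex and its activation, of 16 listed, pre-p38i lowered 3, 9, 12 and 11 on days 1, 3, 5 and 7 and p38i 6, 9, 3 and 1, beside 6.24%, 6.87%, 11.3% and 14.5% of all genes and 12.6%, 16.2%, 18.7% and 17.6%. With only the 4 libraries compared in the fit, the pre-p38i counts were 1, 5, 3 and 11 and the p38i counts 3, 3, 2 and 0. The genes higher were 2, 1, 1 and 0 with pre-p38i, beside 5.4%, 13.8%, 14.3% and 15.4% of all genes. With p38i they were 0, 1, 3 and 5, beside 3.47%, 5.22%, 7.87% and 16.5% of all genes. The p38i count higher at day 3 was 0 without replicate 2 of DMSO or replicate 1 of p38i. The p38i count of 9 at day 3 was 5 to 8 with a library left out, lowest without replicate 1 of DMSO or of p38i, and the 1 lower at day 7 was 2 without replicate 1 of p38i. Bgn, for the proteoglycan biglycan, was at 2884 and 2800 TPM in MEF.ctr and 122 and 133 at day 7 with DMSO, and with pre-p38i it fell on each day and dropped by 1.56 at day 7 (44 and 41 TPM, SE 0.0663, adjusted p = 1.43e-12). Dcn, for decorin, which can bind TGF-beta, went the other way from 7 and 7 TPM in MEF.ctr to 104 and 102 at day 7. It was at 225 and 231 TPM with p38i on that day (1.14, 2.36e-09) and 51 and 42 with pre-p38i (-1.14, 1.74e-09). Fbn1, for fibrillin 1, which anchors the latent complex, was 0.91 higher with p38i at day 7, at 195 and 199 against 103 and 106 TPM (4.12e-10). Lrrc32, which presents latent TGF-beta on the cell surface, fell by 1.48 with p38i at day 1, at 6 and 4 against 16 and 15 TPM (2.18e-07), a call that ended with only the 4 libraries compared in the fit (adjusted p = 0.0845, the highest of its 10 alternatives).

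Of 6 measured activin, nodal and related genes, of 11 listed, 1 rose and 2 fell with p38i on each of days 1, 3 and 5 and 2 rose and 2 fell at day 7, while pre-p38i lowered 1, 4, 3 and 4 and raised 0 on the 4 days. The p38i arm raised 3.47%, 5.22%, 7.87% and 16.5% of all genes and lowered 12.6%, 16.2%, 18.7% and 17.6%, and the pre-p38i arm lowered 6.24%, 6.87%, 11.3% and 14.5%. At day 7 the p38i fall was 0 or 1 gene without any 1 of the 4 libraries and the rise 1 gene without replicate 2 of DMSO or either library of p38i, and for pre-p38i the count was 2 at day 1 without replicate 2 of DMSO and at day 3 it was 1 without replicate 1 of DMSO and 2 without replicate 1 of pre-p38i. Gdf11, a ligand that also signals through SMAD2 and SMAD3, rose with p38i on each day, from 11 and 12 TPM with DMSO to 34 and 36 at day 7 (1.53, SE 0.0931, adjusted p = 4.56e-10). Fst, for the activin antagonist follistatin, was at 375 and 361 TPM with DMSO at day 1 and 151 and 155 with p38i (-1.26, 4.88e-09), while pre-p38i held 368 and 364. At day 1 Inhbb, another activin subunit gene, fell with p38i (-0.86, 0.00026) and the activin antagonist Fstl3 fell with pre-p38i (-1.45, 2.73e-05). Among 9 other measured receptors and coreceptors, p38i lowered 2 and raised 0 at day 1 (12.6% and 3.47% of all genes) and raised 1 at day 7 (16.5%). The first was 1 to 3 and the second 0 to 1 with a library left out. Tgfbr1, for the type I receptor, was at 15 and 17 TPM with DMSO at day 7, 19 and 17 with p38i and 19 and 17 with pre-p38i. Of 16 SMADs and intracellular regulators, pre-p38i raised 3 and lowered 3 at day 7 and p38i raised 3 and lowered 1, beside 15.4% higher and 14.5% lower of all genes with pre-p38i and 16.5% and 17.6% with p38i. Pmepa1, a SMAD-inhibiting target gene, was the gene of this list with the largest fall in 3 comparisons. It fell by 1.07 in MEFs (from 151 and 133 to 65 and 69 TPM, adjusted p = 5.01e-08), by 0.88 with p38i at day 1 (1.19e-06) and by 0.93 with pre-p38i at day 7 (1.6e-07). With only the 4 libraries compared in the fit, the day 1 calls of Gdf11, Inhbb and Pmepa1 with p38i and of Fstl3 with pre-p38i ended (adjusted p = 0.109, 0.122, 0.0501 and 0.0805, the highest of their 10 alternatives).

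Over the 14 group means, pairs of members differed in how alike their patterns were. Pearson's r of log2(TPM + 1) was 0.956 between Tgfb3 and Thbs1 and 0.953 between Tgfb3 and Inhba, while Tgfb1 and Tgfb2 had r = 0.198. Tgfbr2 had negative values with all 8 others, -0.308 to -0.712. The 14 points share the split between MEFs and reprogramming cells, and these values are descriptions. Among all genes with a mean of at least 5 TPM, the patterns most like those of the members were Eif4ebp1 for Tgfb1 (r = 0.982), S1pr3 for Tgfb2 (0.965), Sec23a for Tgfb3 (0.992) and Prss23 for Inhba (0.985). For the matrix protein genes they were Ilk for Ltbp1 (0.981), Phldb2 for Ltbp2 (0.981) and Jph2 for Thbs1 (0.983), and for the receptor and the target Tmem87b (0.977) and Schip1 (0.908). Tgfbi was thus the member with the loosest nearest pattern. In order of level over the groups, the libraries of 10 of its 13 neighbouring pairs overlapped, against 9 for Tgfb2, 7 for Tgfb3 and Ltbp1, and 6 for Tgfb1, Inhba, Ltbp2 and Tgfbr2. These numbers depend on the level too, since equal whole numbers counted as overlap.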

How the data were processed

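RNA-seq was made from 28 libraries, 2 for each of 14 groups, and the groups were taken from the labels. Per the submitters' processing notes the authors used bcl2fastq, Bowtie2 2.2.5 and RSEM 1.3.0, with mm10 and hg38 as builds, the role of the latter not stated. The deposited values are whole numbers whose unit is not named, and they were recorded as a score and read as TPM rounded down, since their sum per library was 991287 to 992537. The depth per library is not given in the sources used here, so no counting interval was possible. Of the gene identifiers in the table, 99.56% were in GENCODE M21 (GRCm38) and 92.91% had the same position. Library kit, RNA extraction and MEF medium are described differently in the labels and in the methods of the study.

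The 13230 of 50600 genes whose mean value reached 1 were fitted as log2(value + 1) in limma 3.58.1 (R 4.3.3; lmFit, eBayes with trend), with 14 groups in 1 model, no replicate block and Benjamini-Hochberg adjustment over all genes tested in each of 20 comparisons. The steps were tested on simulated data. The members, pathway lists and markers were chosen with earlier results of these data known. All 9 members are named, and from each pathway list those called genes are named whose mean reached 5 and whose groups did not overlap, up to 2 rises and 2 falls in a comparison. Tgfbr1 was given at day 7 outside this rule, since its libraries overlapped there. The nearest patterns are the highest Pearson correlations of group means. As alternatives, the added constant was set to 0.1, the filter was dropped or raised to a mean of 5, and fits used a replicate block, quantile normalization, a fit of only the groups compared, and leaving out each library. The counts of the pathway lists under these alternatives were added after seeing the data. One gene of the pathway lists is not reported here by name.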

Additional observations from a re-analysis of the deposited data

Results flagged for a closer look

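The difference from DMSO was itself tested for a change between day 1 and day 7 with limma. In all, 12 changes of members passed the threshold. Of all genes, 21.6% were called in the p38i arm (14.1% higher and 7.55% lower). In the pre-p38i arm 16.7% were called (7.25% higher and 9.43% lower). In the p38i arm, the change (day 7 minus day 1, log2 scale) was 1.74 for Tgfbi, 1.27 for Inhba, 1.20 for Tgfb3, 1.15 for Tgfb2, 1.05 for Thbs1, 0.86 for Tgfbr2 and 0.42 for Ltbp1. In the pre-p38i arm it was -1.68 for Ltbp2, -1.23 for Inhba, -1.06 for Tgfb1, -0.58 for Tgfbr2 and -0.53 for Thbs1. The pre-p38i calls of Ltbp2 and Inhba ended with only the groups compared in the fit (adjusted p = 0.0632 and 0.145 by limma). The p38i call of Inhba ended with an added constant of 0.1 (0.309). Both arms use the same DMSO libraries. Single libraries that stand apart within a group were not looked for, because each group has 2.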

How the results depend on the processing

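Of 1872 values of single members under an alternative, 1728 kept their direction and side of the threshold, 120 lost the call and 24 gained one. In 34 the sign differed with neither value called, and no called value reversed. Of 208 counts of members called, 184 stayed within 1.5 times.

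Fits of only the groups compared called fewer members, which leaves 2 residual degrees of freedom in a comparison of 4 libraries: 1 of the 4 for pre-p38i against DMSO at day 1, 1 of 6 at day 3 and 3 of 7 at day 7. For p38i it was 4 of 7 at day 1, 2 of 5 at day 3, 0 of 3 at day 5 and 1 of 4 at day 7. The 0 is limma's, with 4 of the 9 members at an unadjusted p under 0.05 and 978 of 13230 genes called. For p38i against pre-p38i at day 3 it was 3 of 6, for DMSO day 5 against day 3 it was 0 of 3 (2 of the 9 at an unadjusted p under 0.05 and 365 genes called), for day 7 against day 5 it was 2 of 7, and for the pre-p38i interaction 3 of 5. With an added constant of 0.1, 2 of 4 were called for pre-p38i at day 1 and 3 of 5 for p38i at day 3, and with quantile normalization 5 in place of 3 for DMSO day 5 against day 3. The cause of these changes was not tested.

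Leaving out 1 library called 2 members in each case for pre-p38i at day 1, 3 to 6 at day 3, 2 to 4 for p38i at day 7, 1 to 3 for DMSO day 5 against day 3 and 4 to 7 for day 7 against day 5. Replicate numbers did not pair the libraries, whose deviations from their group means were uncorrelated (r -0.0159 to 0.0513 over 13 pairs of groups). A replicate block within time point moved the count from 7 to 6 for p38i at day 1, from 5 to 6 at day 3 and from 5 to 6 for p38i against pre-p38i at day 1, and no other count.

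Quantile normalization moved the median of all genes from 0.14 to -0.07 for DMSO day 1 against MEFs, from 0.20 to -0.10 for day 7 against MEFs, and from -0.16 to 0.05 and -0.12 to 0.02 for p38i against pre-p38i at days 3 and 5. It moved the share of calls that were higher, in p38i against DMSO, from 21.6% to 41.1% at day 1, from 24.4% to 50% at day 3 and from 29.6% to 52.7% at day 5. For pre-p38i at day 3 the share went from 66.7% to 50.7%, for DMSO against MEFs from 65.9% to 47.5% at day 1 and 64.4% to 44.8% at day 7, for day 5 against day 3 from 71.3% to 50.8%, and for p38i against pre-p38i from 29.3% to 44.5%, 25.5% to 53.7% and 34.4% to 52.9% at days 1, 3 and 5.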
